A study of Rattus norvegicus with 44 samples.

Results

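Amino acid transporters of the kidney were followed as all genes of the deposited table whose symbol belongs to the solute carrier families Slc1, Slc3, Slc6, Slc7, Slc36, Slc38 or Slc43. The table holds 61 such members among 32883 entries, and 38 of them passed the filter used for testing (FPKM above 1 in at least 9 animals), among 13482 tested genes. FPKM divide the fragments of a gene by its transcript length and by the reads of the library, so levels of different genes can be set side by side. The kidneys came from 44 male obese ZSF1 rats, which are obese and diabetic and lose kidney function with age, with 1 library for each animal. All rats carried a telemetry implant and were dosed through the feed for 6 months from 22 weeks of age: 11 with the vehicle (Vehicle), 9 with Enalapril, an inhibitor of the angiotensin-converting enzyme, at 3 mg/kg/day, 12 with Compound 1, a stimulator of soluble guanylyl cyclase, raised to 3 mg/kg/day, and 12 with both (Combination), where Compound 1 stayed at 1 mg/kg/day. The 2 groups given Compound 1 thus had unequal doses of it, and lean rats are not analysed here. The labels name the tissue only as kidney, without the zone sampled.

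The kidney filters free amino acids into the tubule and takes nearly all of them back in the proximal tubule. Carriers of the brush border, such as Slc6a19 for neutral and Slc3a1 with Slc7a9 for dibasic amino acids and cystine, bring them into the cell, and exchangers of the basolateral membrane, such as Slc3a2 with Slc7a7 or Slc7a8, pass them on to the blood. Slc3a1 (rBAT) and Slc3a2 (4F2hc) are heavy chains that carry a light chain of the Slc7 family to the membrane and do not transport by themselves. Slc3a1 pairs with Slc7a9 in the early proximal tubule and, in mouse, with Slc7a13 in its straight last segment.

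The stretches upstream of the genes of Slc3a1 and its light chain Slc7a9 are shown because the ratio of these partners is described, and those of Slc7a12 and Slc7a15 because they were the only members with a hit for either motif searched. They are the 100 bases before the RefSeq start site on build GRCr8 (the deposited values used the older build rn6), 5′ to 3′ on the gene's strand, with capitals marking the HNF1 motif. They lie at chr6:15394750-15394849 on the minus strand for Slc3a1, chr1:97246782-97246881 on the plus strand for Slc7a9, chr2:88868104-88868203 on the minus strand for Slc7a12 and chr6:37134502-37134601 on the minus strand for Slc7a15.
Slc3a1: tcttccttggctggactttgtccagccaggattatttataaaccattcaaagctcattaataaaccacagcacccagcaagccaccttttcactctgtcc
Slc7a9: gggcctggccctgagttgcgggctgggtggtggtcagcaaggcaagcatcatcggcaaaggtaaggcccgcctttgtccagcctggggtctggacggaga
Slc7a12: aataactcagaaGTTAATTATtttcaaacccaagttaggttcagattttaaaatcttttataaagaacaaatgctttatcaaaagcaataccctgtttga
Slc7a15: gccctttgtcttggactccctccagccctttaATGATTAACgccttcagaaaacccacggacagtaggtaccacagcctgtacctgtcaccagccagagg
Of the 61 members, 45 matched a RefSeq promoter of 300 bases. The motif of HNF1, a homeodomain factor of proximal tubule cells, searched as GTTAATNAT on both strands, was found in 2 of the 45, in Slc7a12 starting at position -88 and in Slc7a15 at -68 on the opposite strand, and in 0.747% of all 33469 promoters. The core of the motif bound by ATF4, the factor of the amino acid starvation response, searched as TGATGNAAT on both strands, was in 0 of the 45 and in 1.09% of all promoters. These are matches of letters and say nothing about binding.

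Library depth is not recorded in FPKM. Read from low FPKM values, the relative depth spanned 0.677 to 1.281 in Vehicle, 0.825 to 1.392 in Enalapril, 0.839 to 1.331 in Compound 1 and 0.842 to 1.308 in Combination animals. The tested genes together sat lower than in Vehicle, at medians of -0.15 (Enalapril), -0.07 (Compound 1) and -0.18 (Combination) on the log2 scale, and the same values for the tested members were -0.04, -0.01 and -0.06. Results are therefore also given after median-of-ratios rescaling, under which the shift of all genes was near 0. Among the libraries, 3 stood apart. Compound 1 animal 3001 and Vehicle animals 1003 and 1004 had the lowest mean log2 level of 12 proximal tubule markers (6.72, 7.17 and 7.28, against group means of 7.58 for Compound 1 and 7.60 for Vehicle), and animal 1004 also lay far out on the second principal component. Values without Vehicle animals 1003 and 1004 are given beside members whose calls against Vehicle they end.

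The members spanned a wide range of levels, and a few of them made up most of the total. In Vehicle the 61 members summed to 1599 ± 228 FPKM (SD, n = 11), and the 5 highest, Slc3a1, Slc7a13, Slc6a18, Slc3a2 and Slc7a7, held 63.6 ± 4.27% of it. Slc3a1 alone held 31.5 ± 3.66%. The summed level was 1948 ± 117 FPKM with Enalapril (n = 9), 1671 ± 222 with Compound 1 (n = 12) and 1991 ± 175 with Combination (n = 12). The share of Slc3a1 in it was 36.3 ± 1.75%, 34.0 ± 3.29% and 37.1 ± 2.27%. Slc3a1, Slc7a13 and Slc6a18 belong to the brush border, and Slc3a2 and Slc7a7 form a basolateral pair.

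**Figure D1:**
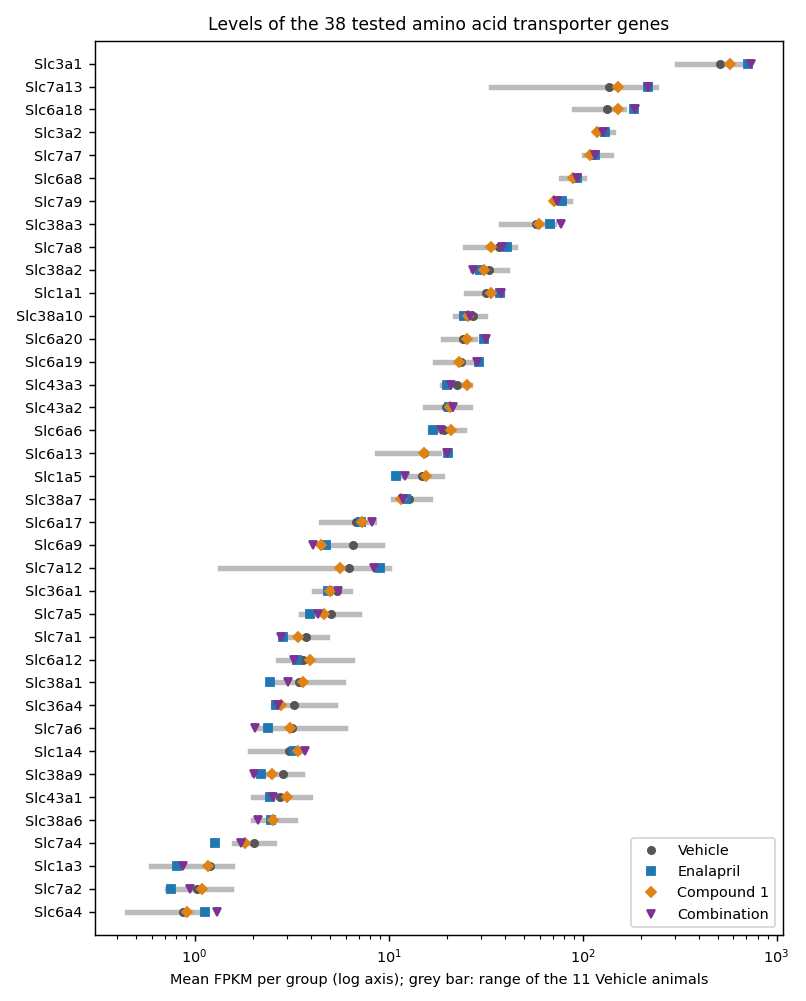
Mean FPKM of the 38 tested members in each of the 4 groups on a log axis, ordered by the Vehicle mean, with a grey bar for the range of the 11 Vehicle animals. Slc3a1 stood alone at the top with a Vehicle mean of 511 FPKM, and Slc7a13, Slc7a12 and Slc6a4 had wide Vehicle ranges.

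With Enalapril or Combination, 6 of the 8 tested luminal carriers of the proximal tubule rose by adjusted p and Slc1a5 fell, and few changes of any member passed the fold threshold. The rises were also present after rescaling, while most of the falls were not. DEGs were genes with an adjusted p under 0.05 (limma, Benjamini-Hochberg over all tested genes) and a fold change above 1.5 or under 0.66. Against Vehicle, Enalapril gave 1 higher DEG among the 38 members, Slc7a13, where 0.49% of all tested genes were higher DEGs, and 1 lower, Slc7a4, where 4.04% were. By adjusted p alone 7 members rose (Slc1a1, Slc3a1, Slc6a13, Slc6a18, Slc6a19, Slc6a20 and Slc7a13), against 3.57% of all genes, and 8 fell (Slc1a3, Slc1a5, Slc38a1, Slc38a9, Slc6a9, Slc7a1, Slc7a4 and Slc7a5), against 26.6%. After rescaling, 4 members were higher DEGs (Slc3a1, Slc6a13, Slc6a18 and Slc7a13), against 1.52% of all genes, and 0 were lower, against 1.22%. By adjusted p alone, 10 members were then higher, against 10.4% of all genes, and 2 were lower (Slc1a5 and Slc7a4), against 9.66%, so that 6 of the 8 falls did not pass. Without Vehicle animals 1003 and 1004, 0 members were DEGs as deposited, where 0.193% of all genes were higher and 2.44% lower DEGs, and 1 was after rescaling (Slc7a13), where 0.549% were higher. In these animals 6 members rose and 5 fell by adjusted p alone as deposited, against 2.51% and 22.3% of all genes.

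Combination gave 1 higher DEG, again Slc7a13 (0.994% of all tested genes), and 2 lower, Slc6a9 and Slc7a6 (6.39%). By adjusted p alone 10 members rose (Slc1a1, Slc1a4, Slc38a3, Slc3a1, Slc6a13, Slc6a18, Slc6a19, Slc6a20, Slc6a4 and Slc7a13), against 6.38% of all genes, and 7 fell (Slc1a3, Slc1a5, Slc38a2, Slc38a9, Slc6a9, Slc7a1 and Slc7a6), against 39.3%. After rescaling, 7 members were higher DEGs (Slc38a3, Slc3a1, Slc6a13, Slc6a18, Slc6a4, Slc7a12 and Slc7a13), against 2.5% of all genes, and 0 were lower, against 2.31%. By adjusted p alone, 14 members were then higher, against 16.6% of all genes, and 3 were lower (Slc38a9, Slc6a9 and Slc7a6), against 15.3%, so that 4 of the 7 falls did not pass. Without Vehicle animals 1003 and 1004, 0 members were DEGs as deposited, where 0.49% of all genes were higher and 4.7% lower DEGs, and 4 were after rescaling (Slc3a1, Slc6a18, Slc6a4 and Slc7a13), where 1.45% were higher. Without them 9 members rose and 7 fell by adjusted p alone as deposited, against 5.23% and 36.3% of all genes. The comparisons with Vehicle share the Vehicle animals.

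Compound 1 alone gave 0 DEGs among the members, where 0.0445% of all tested genes were higher and 0.156% lower DEGs. By adjusted p alone 1 member fell, Slc6a9, against 0.341% of all genes, and 3 of the 38 had an unadjusted p under 0.05 in limma, as 13.3% of all genes did. Rescaling also left 0 DEGs and Slc6a9 as the member that fell.

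**Figure D2:**
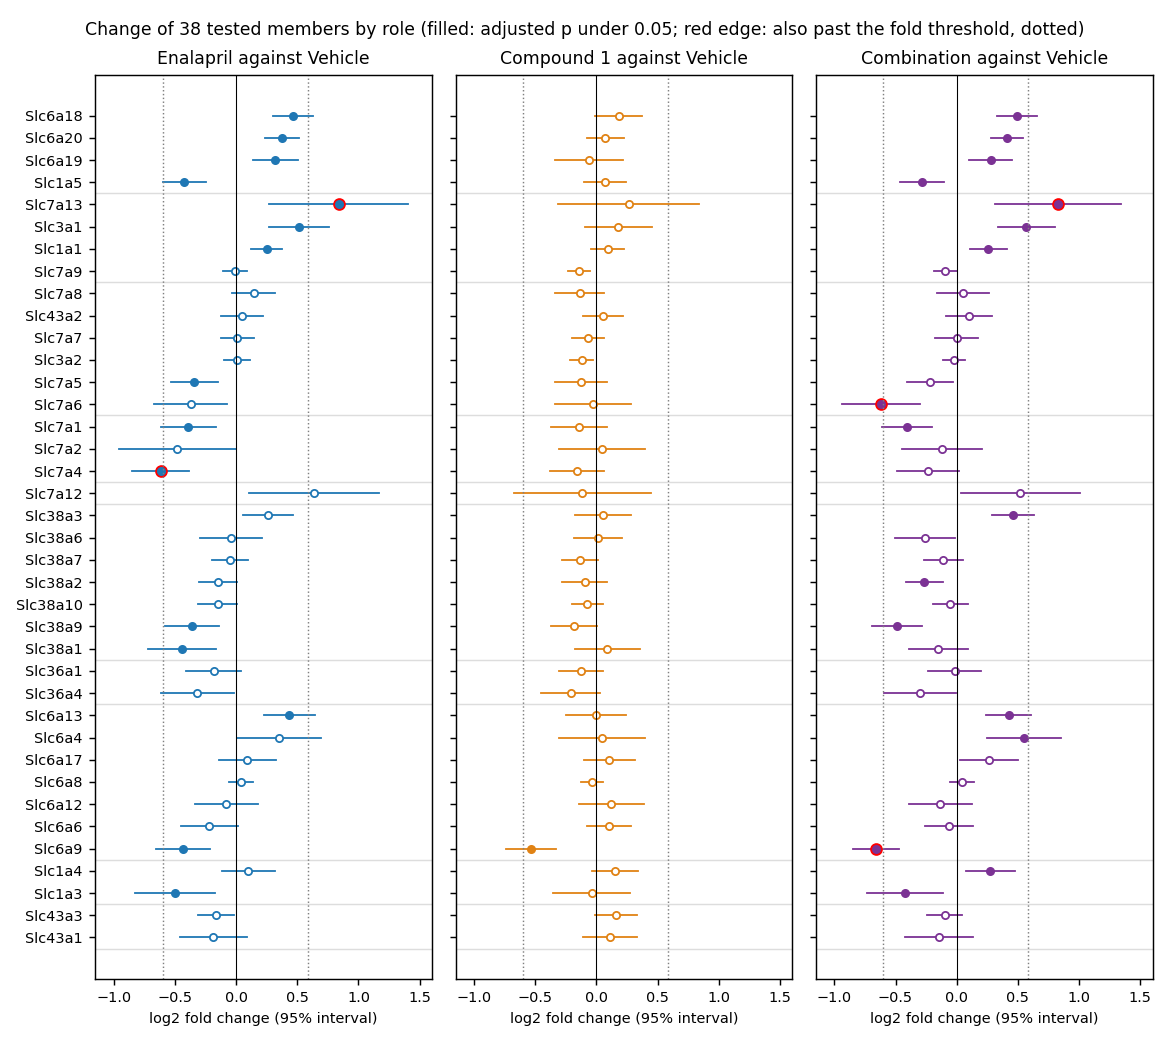
Log2 fold change against Vehicle with its 95% interval for the 38 tested members, grouped by role from the luminal carriers at the top to Slc43 at the bottom, with dotted lines at the fold thresholds. Filled points have an adjusted p under 0.05 and red edges mark DEGs, which are Slc7a13 and Slc7a4 with Enalapril and Slc7a13, Slc6a9 and Slc7a6 with Combination.

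Among the luminal carriers, Slc7a13, which carries aspartate, glutamate and cystine, had the largest fold change against Vehicle of any member with Enalapril and with Combination. Its FPKM ran from 33.6 in the lowest to 238 in the highest Vehicle animal with a median of 137, from 122 to 270 (median 213) with Enalapril, from 61.4 to 212 (median 160) with Compound 1 and from 122 to 273 (median 225) with Combination. The groups overlapped, although 8 of 9 Enalapril and 11 of 12 Combination animals lay above the Vehicle median, and the lowest Vehicle animals reached levels not seen with Enalapril or Combination. The log2 fold change was 0.84 (SE 0.29, adjusted p = 0.0322, limma) with Enalapril and 0.82 (SE 0.26, adjusted p = 0.0133) with Combination, against 0.26 (SE 0.29, adjusted p = 0.697) with Compound 1. Without Vehicle animals 1003 and 1004 these were 0.49 (adjusted p = 0.059) with Enalapril and 0.48 (adjusted p = 0.0384) with Combination. Leaving out a single animal ended the call with Enalapril in 6 of 20 fits (animals 1003, 1006, 2005, 2008, 2009 and 2011, adjusted p from 0.016 to 0.0613 over all fits) and with Combination in 0 of 23.

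Slc3a1, the heavy chain rBAT and the most abundant member, rose with both treatments that contained Enalapril. Its FPKM ran from 308 to 723 (median 537) in Vehicle, from 604 to 780 (median 721) with Enalapril, from 334 to 789 (median 559) with Compound 1 and from 561 to 873 (median 762) with Combination. Every Enalapril and every Combination animal lay above the Vehicle median, and the ranges overlapped. The log2 fold change was 0.51 (SE 0.12, adjusted p = 0.00486) with Enalapril and 0.57 (SE 0.12, adjusted p = 0.000574) with Combination, under the fold threshold as deposited and above it after rescaling (0.66 and 0.74). Without Vehicle animals 1003 and 1004 it was 0.37 (adjusted p = 0.00578) and 0.43 (adjusted p = 0.00106).

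Slc7a9, the light chain of Slc3a1 and the other chain of the cystine carrier of the early proximal tubule, did not follow it. Its FPKM ran from 71.7 to 85.8 (median 79.1) in Vehicle, from 67.9 to 89.4 (median 78.3) with Enalapril, from 60.7 to 79.1 (median 72.4) with Compound 1 and from 59.8 to 84.6 (median 73.8) with Combination. All groups overlapped in a narrow band, and its log2 fold change was -0.01 (SE 0.05) with Enalapril and -0.09 (SE 0.05) with Combination, neither past the test. With Compound 1 it did not pass by adjusted p, but 12 of 12 animals lay below the Vehicle median and 5 below every Vehicle animal. With Combination 10 of 12 lay below that median and 3 below every Vehicle animal. After rescaling Slc7a9 was higher by adjusted p in Combination than in Compound 1. Slc1a1 (EAAT3), the luminal carrier of glutamate and aspartate, rose from 31.8 ± 3.87 FPKM in Vehicle to 37.5 ± 1.20 with Enalapril and 38.05 ± 4.86 with Combination, while Compound 1 stood at 33.8 ± 3.30.

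The unequal movement of heavy and light chains was also read as a ratio of FPKM within each animal, which no scaling of the library can alter. These pairs were chosen after the values were seen, so the ratios are a description without a test. The ratio of Slc3a1 to Slc7a9 ran from 4.11 to 9.59 (median 6.43) in Vehicle, from 6.75 to 10.6 (median 9.68) with Enalapril, from 5.51 to 12.1 (median 7.67) with Compound 1 and from 8.04 to 13.0 (median 10.3) with Combination. It lay above the Vehicle median in 9 of 9 Enalapril, 10 of 12 Compound 1 and 12 of 12 Combination animals, and the ranges overlapped. On the log2 scale the difference from Vehicle was 0.52 (SE 0.14), 0.32 (SE 0.15) and 0.66 (SE 0.14). Without Vehicle animals 1003 and 1004 it was 0.39, 0.19 and 0.53. The ratio of Slc3a1 to Slc7a13, its partner in the straight segment, had medians of 3.74, 3.29, 3.67 and 3.27 in Vehicle, Enalapril, Compound 1 and Combination.

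**Figure D3:**
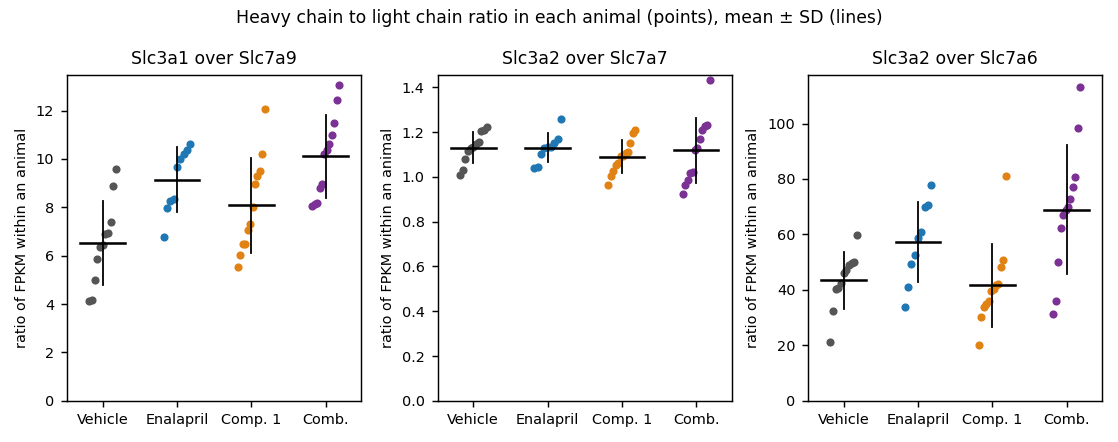
Ratio of heavy chain to light chain FPKM within each animal for 3 pairs, with points for animals and lines for the group mean ± SD. Slc3a1 over Slc7a9 was highest with Combination (mean 10.1 against 6.51 in Vehicle), Slc3a2 over Slc7a7 stayed between means of 1.09 and 1.13, and Slc3a2 over Slc7a6 had a mean of 69.0 with Combination against 43.5 in Vehicle.

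The luminal carriers of neutral amino acids and of proline rose with Enalapril and with Combination, in 3 of 4 tested members each time, and the fourth, Slc1a5, fell. Slc6a18 (B0AT3), a carrier of glycine and alanine in the late proximal tubule, ran from 90.2 to 163 FPKM (median 139) in Vehicle, from 155 to 205 (median 189) with Enalapril, from 109 to 216 (median 147) with Compound 1 and from 153 to 219 (median 190) with Combination. The Enalapril and Combination animals overlapped only the top of the Vehicle range, at log2 fold changes of 0.47 (SE 0.08, adjusted p = 0.000663) and 0.49 (SE 0.08, adjusted p = 8.34e-05). Slc6a20, the carrier of proline and other imino acids, ran from 19.0 to 28.0 FPKM in Vehicle and from 28.6 to 35.7 with Combination, so these groups did not overlap, which held for 0.341% of all tested genes as higher. Its log2 fold change was 0.41 (SE 0.07, adjusted p = 5.84e-05) with Combination and 0.37 (SE 0.07, adjusted p = 0.000895) with Enalapril. Slc6a19 (B0AT1), the main luminal carrier of neutral amino acids, rose from 23.5 ± 3.70 FPKM in Vehicle to 29.3 ± 4.28 with Enalapril and 28.4 ± 3.90 with Combination. Slc1a5 (ASCT2), a glutamine exchanger found in many cell types, fell from 14.8 ± 2.28 to 10.96 ± 1.36 and 12.2 ± 2.01 FPKM, and after rescaling its adjusted p was 0.011 with Enalapril and 0.26 with Combination. Slc36a2, a proton-coupled carrier of glycine and proline, did not pass the filter and never exceeded 0.136 FPKM.

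The levels of markers of the proximal tubule moved with these luminal carriers. The summed FPKM of 12 such markers, none of them an amino acid transporter and all of them past the filter, ran from 3505 to 6187 (median 5500) in Vehicle, from 5349 to 8322 (median 6536) with Enalapril, from 2451 to 6994 (median 5300) with Compound 1 and from 5547 to 7370 (median 6961) with Combination. Of the 12, 0 were DEGs with Enalapril, 0 with Compound 1 and 1, Khk, was higher with Combination, against 0.994% of all tested genes. After rescaling 2, 0 and 4 were higher, against 1.52%, 0.0742% and 2.5% of all genes. By adjusted p alone, as deposited, all but Slc5a2 and Slc4a4 rose with Enalapril and with Combination, against 3.57% and 6.38% of all genes. With the mean level of these markers as a covariate, 0 members were DEGs with Enalapril and 0 with Combination. In that fit the log2 fold change of Slc7a13 turned to -0.22 with Enalapril and -0.35 with Combination, and that of Slc3a1 was 0.06 and 0.08. The covariate was itself higher with these treatments (mean log2 level 7.93 and 7.95, against 7.60 in Vehicle). The fit therefore cannot separate an effect of treatment on a member from one on the markers, and the change of sign is not a measured fall. Of 5 markers of the straight segment, 1, Slc22a7, was a higher DEG with Enalapril and with Combination, against 0.49% and 0.994% of all tested genes. Slc22a7 lay near the filter, at a Vehicle mean of 0.921 FPKM. Slc5a10, at 99.9 FPKM in Vehicle, rose by adjusted p with both (0.0045 and 0.000218, limma), while Acsm3, Slc22a13 and Cyp4a2 did not pass. The summed FPKM of the 5 had medians of 4459, 5147, 4298 and 4963 in the same order of groups. In whole tissue, more cells of a type and more RNA per cell cannot be told apart.

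**Figure D4:**
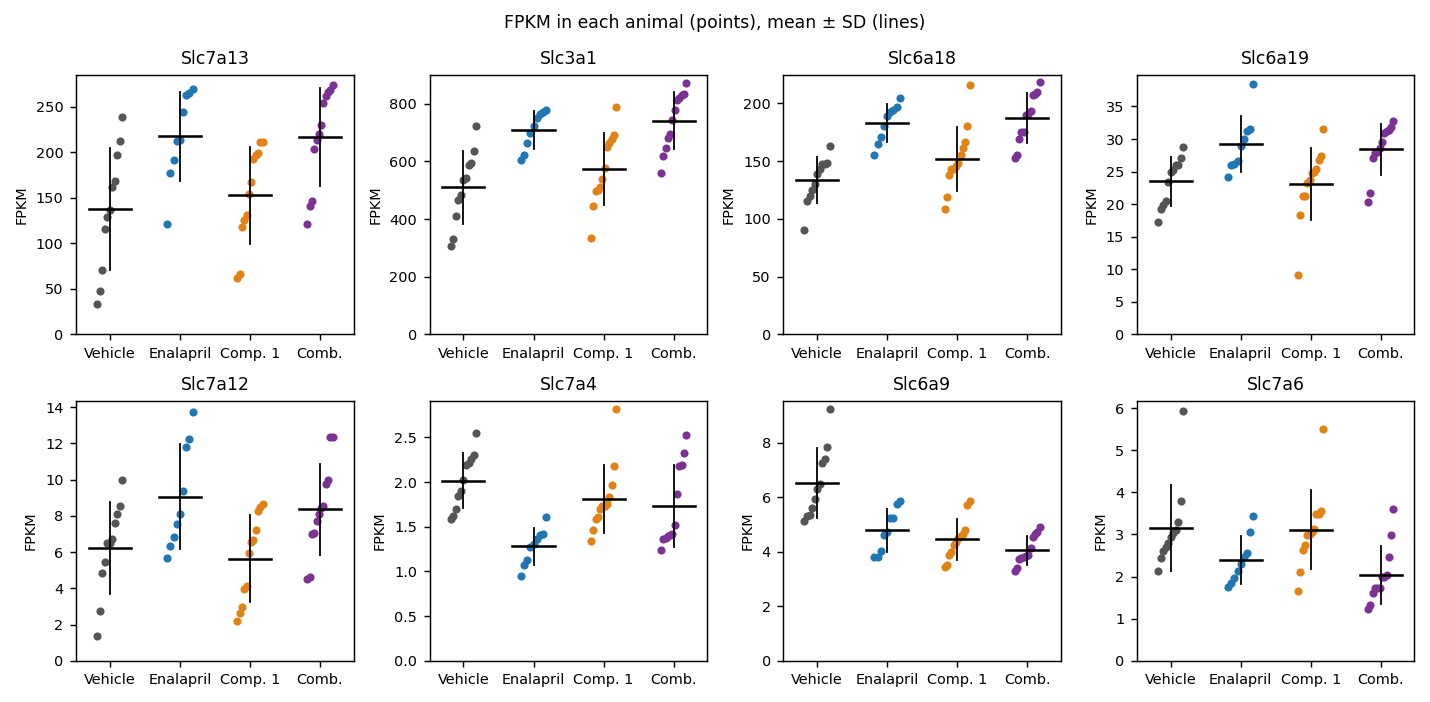
FPKM in each animal for 8 members in the 4 groups, with points for animals and lines for the group mean ± SD, on axes that start at 0. Slc7a13, Slc3a1, Slc6a18 and Slc6a19 were higher with Enalapril and Combination, Slc7a12 varied widely in every group, and Slc6a9 in the Combination animals lay wholly below the Vehicle range.

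The basolateral heavy chain and its main epithelial partners had overlapping levels in all groups. Slc3a2 ran from 122 to 144 FPKM (median 128) in Vehicle, from 104 to 140 (median 135) with Enalapril, from 94.9 to 135 (median 121) with Compound 1 and from 107 to 140 (median 128) with Combination. Slc7a7 (y+LAT1), which exports dibasic amino acids in exchange for neutral ones, ran from 102 to 140 (median 109), from 89.8 to 134 (median 115), from 89.1 to 126 (median 112) and from 78.9 to 151 (median 119) in the same order. Slc7a8 (LAT2), an exchanger of neutral amino acids, ran from 24.8 to 45.1 (median 38.05), from 32.2 to 49.1 (median 40.7), from 21.2 to 42.2 (median 34.2) and from 23.2 to 48.7 (median 40.6). The 3 genes overlapped among all groups, and none passed the test against Vehicle as deposited. After rescaling Slc7a8 was higher by adjusted p with Enalapril, as 10.4% of all genes were. On that scale Slc3a2 and Slc7a8 were also higher in Combination than in Compound 1, as 10.8% of all genes were. The 95% interval of the log2 fold change of Slc3a2 ran from -0.10 to 0.12 with Enalapril and from -0.11 to 0.07 with Combination. With Compound 1 it ran from -0.22 to -0.02 (adjusted p = 0.302), and 11 of 12 animals lay below the Vehicle median and 7 below every Vehicle animal. The ratio of Slc3a2 to Slc7a7 within an animal had medians of 1.13, 1.13, 1.09 and 1.13.

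Of the other partners of Slc3a2, Slc7a6 fell with Combination and Slc7a5 with Enalapril. Slc7a6 (y+LAT2) ran from 2.14 to 5.94 FPKM (median 2.94) in Vehicle, from 1.75 to 3.43 (median 2.30) with Enalapril, from 1.66 to 5.51 (median 3.03) with Compound 1 and from 1.23 to 3.61 (median 1.86) with Combination. In 9 of 12 Combination animals it lay below every Vehicle animal, and the highest Vehicle value came from animal 1004. Its log2 fold change with Combination was -0.62 (SE 0.16, adjusted p = 0.00366), a DEG that 5 of 23 fits without 1 animal (1003, 1004, 4004, 4008 or 4010) no longer called, and -0.48 (adjusted p = 0.0134) without animals 1003 and 1004. With Enalapril it was -0.37 (adjusted p = 0.0687). Slc7a5 (LAT1), a carrier of large neutral amino acids, fell from 5.05 ± 0.879 FPKM in Vehicle to 3.93 ± 0.432 with Enalapril and stood at 4.30 ± 0.673 with Combination, and the log2 difference between these treatments was 0.12 (adjusted p = 0.719). For Slc7a5 the adjusted p was 0.061 with Combination as deposited and 0.0384 without animals 1003 and 1004, and 0.0866 with Enalapril after rescaling. Slc43a2, a related carrier of large neutral amino acids, did not pass the test against Vehicle as deposited, and after rescaling it was higher with Combination (log2 fold change 0.27, adjusted p = 0.012).

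Among the cationic carriers and their relatives, Slc7a4, whose transport function is not established, fell with Enalapril. It ran from 1.59 to 2.55 FPKM (median 2.02) in Vehicle, from 0.944 to 1.61 (median 1.30) with Enalapril, from 1.34 to 2.82 (median 1.74) with Compound 1 and from 1.23 to 2.53 (median 1.47) with Combination. Of the 9 Enalapril animals 8 lay below every Vehicle animal, with 1 inside the Vehicle range. The log2 fold change was -0.62 (SE 0.12, adjusted p = 0.001), close to the fold threshold, so that rescaling (-0.47, adjusted p = 0.00819) and 5 of 20 fits without 1 animal (1002, 1003, 2007, 2011 or 2103) ended the call while the adjusted p stayed under 0.05. It was -0.56 (adjusted p = 0.00324) without Vehicle animals 1003 and 1004, also short of the fold threshold. Slc7a1 (CAT1), the widely expressed arginine and lysine carrier, fell from 3.74 ± 0.632 FPKM to 2.84 ± 0.534 with Enalapril and 2.81 ± 0.517 with Combination, and after rescaling its adjusted p was 0.126 and 0.0526. Slc7a2 (CAT2) stood near 1 FPKM and did not pass the test.

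Slc7a12, a light chain relative described as Asc-2 in mouse kidney, was among the most variable members. It ran from 1.36 to 9.99 FPKM (median 6.52) in Vehicle, from 5.65 to 13.7 (median 8.08) with Enalapril, from 2.17 to 8.66 (median 6.24) with Compound 1 and from 4.51 to 12.4 (median 8.27) with Combination. All groups overlapped. In the main fits as deposited it was a DEG in the comparison of Enalapril with Compound 1 only. There it was the 1 higher DEG among members (0.326% of all tested genes) beside 0 lower (1.89%), at 0.75 on the log2 scale (SE 0.26, adjusted p = 0.0485). Without Compound 1 animal 3001 the adjusted p was 0.103. For Combination against Compound 1 it was a DEG when these 24 animals were fitted alone (log2 fold change 0.63, SE 0.22, adjusted p = 0.0417). It was also one there in the fit of all groups without Vehicle animals 1003 and 1004. Against Vehicle the log2 fold change was 0.63 (adjusted p = 0.079) with Enalapril and 0.52 (adjusted p = 0.0861) with Combination. With the proximal tubule markers as a covariate the value with Combination was -0.60 (adjusted p = 0.0773). Slc7a15, its relative, did not pass the filter and reached 1.43 FPKM at most.

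Of the sodium-coupled Slc38 carriers, 7 of which were tested, Slc38a3 was the most abundant. Slc38a3 (SNAT3), which brings glutamine into the proximal tubule cell from the blood, ran from 37.8 to 71.5 FPKM (median 59.6) in Vehicle, from 53.1 to 75.4 (median 70.6) with Enalapril, from 35.4 to 74.3 (median 61.8) with Compound 1 and from 70.8 to 88.3 (median 75.7) with Combination. In 11 of 12 Combination animals it exceeded every Vehicle animal. The log2 fold change was 0.46 (SE 0.09, adjusted p = 3e-04) with Combination. With Enalapril 7 of 9 animals lay above the Vehicle median, and Slc38a3 passed by adjusted p only after rescaling. Combination against Enalapril did not pass. Slc38a2 (SNAT2), an amino acid carrier that responds to starvation and osmotic stress, ran from 27.0 to 41.0 FPKM (median 31.7) in Vehicle, from 26.0 to 36.7 (median 28.7) with Enalapril, from 21.9 to 38.9 (median 32.8) with Compound 1 and from 23.2 to 35.0 (median 26.0) with Combination. Its groups overlapped, and it fell with Combination (log2 fold change -0.27, SE 0.08, adjusted p = 0.00735), with -0.09 (adjusted p = 0.269) after rescaling. Slc38a9, the arginine sensor of the lysosome, fell from 2.86 ± 0.405 FPKM to 2.21 ± 0.391 with Enalapril and 2.02 ± 0.351 with Combination, and Slc38a1 (SNAT1) from 3.44 ± 0.988 to 2.46 ± 0.430 with Enalapril. With Enalapril neither passed without Vehicle animals 1003 and 1004 (adjusted p = 0.0506 for Slc38a9 and 0.055 for Slc38a1) or after rescaling (0.149 and 0.118), while Slc38a9 with Combination passed in both (0.00336 and 0.00653).

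Of the remaining Slc6 carriers, Slc6a9 (GLYT1), the glycine carrier, was the one member past the adjusted p with every treatment. It ran from 5.13 to 9.24 FPKM (median 6.32) in Vehicle, from 3.82 to 5.85 (median 4.71) with Enalapril, from 3.43 to 5.85 (median 4.43) with Compound 1 and from 3.30 to 4.90 (median 3.87) with Combination. Every Combination animal lay below every Vehicle animal, as lower values did in 0.66% of all tested genes, and every Enalapril and Compound 1 animal lay below the Vehicle median. The log2 fold change was -0.43 (SE 0.11, adjusted p = 0.00642) with Enalapril, -0.53 (SE 0.10, adjusted p = 0.0112) with Compound 1 and -0.66 (SE 0.10, adjusted p = 2.78e-05) with Combination. After rescaling it was -0.28 (adjusted p = 0.0684), -0.46 (adjusted p = 0.0166) and -0.49 (adjusted p = 0.000425). Without Vehicle animals 1003 and 1004 the value with Combination was -0.57 (adjusted p = 6.53e-05), short of the fold threshold.

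Slc6a8, the creatine carrier, ran from 77.4 to 101 FPKM (median 92.2) in Vehicle, from 86.3 to 102 (median 93.1) with Enalapril, from 78.7 to 97.3 (median 89.7) with Compound 1 and from 79.3 to 103 (median 95.5) with Combination. These ranges overlapped almost fully and no comparison with Vehicle passed as deposited. After rescaling Slc6a8 was higher by adjusted p with Enalapril and with Combination, as 10.4% and 16.6% of all genes were. Slc6a13 (GAT2), a basolateral carrier of taurine and GABA in the proximal tubule, rose from 15.2 ± 2.75 FPKM to 20.3 ± 2.37 with Enalapril and 20.1 ± 2.31 with Combination. Slc6a4, the serotonin carrier, was at the low end of the tested members and rose with Combination from 0.873 ± 0.219 to 1.31 ± 0.270 FPKM, by 0.55 on the log2 scale (SE 0.15, adjusted p = 0.0057). Slc6a6, the taurine carrier, and Slc6a12, the betaine carrier, both known targets of the osmotic response of the medulla, did not pass the test against Vehicle. Slc6a17 was higher by adjusted p with Combination after rescaling only. Its means as deposited were 6.79 ± 1.27 FPKM in Vehicle and 8.20 ± 1.98 with Combination.

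Of the other members, Slc1a3 (GLAST), a glutamate carrier of glia, fell from 1.20 ± 0.266 FPKM to 0.814 ± 0.172 with Enalapril and 0.872 ± 0.228 with Combination. Neither fall of Slc1a3 passed after rescaling (adjusted p = 0.104 and 0.163) or without Vehicle animals 1003 and 1004 (0.0759 and 0.0971). Slc1a4 (ASCT1), a carrier of serine and alanine, rose from 3.07 ± 0.537 to 3.71 ± 0.499 FPKM with Combination, with an adjusted p of 0.0315, which was 0.0678 without those animals and 0.000824 after rescaling. The tested proton-coupled carriers Slc36a1 and Slc36a4 and the members Slc43a1 and Slc43a3 did not pass against Vehicle. The 23 members under the filter reached at most 1.43 FPKM in any animal. Among them Slc7a11, the cystine and glutamate exchanger that follows oxidative stress, reached 0.211 FPKM at most. Defining markers of neurons (Snap25, Syp and Rbfox3) summed to 0.154 to 1.25 FPKM over all animals.

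Markers of immune cells and of injured tubules included lower DEGs with Enalapril and with Combination, where 4.04% and 6.39% of all tested genes were lower DEGs. With these treatments 8 and 7 members fell by adjusted p alone, a looser rule, against 26.6% and 39.3% of all genes. Of 6 macrophage markers 3 were lower DEGs with Enalapril and 2 with Combination, and their summed FPKM had medians of 385, 279, 362 and 251 in Vehicle, Enalapril, Compound 1 and Combination, with ranges of 281 to 571, 201 to 307, 239 to 524 and 203 to 338. Of 5 tested T and B cell markers 3 and 5 were lower, and their sum ran from 20.1 to 38.03 in Vehicle, 13.8 to 22.7 with Enalapril, 17.6 to 37.7 with Compound 1 and 13.1 to 27.6 with Combination. Of 6 markers of injured tubules 4 were lower with Enalapril and 4 with Combination, summing to 3487 to 7100 in Vehicle, 2088 to 3403, 2444 to 6975 and 1785 to 3317. After rescaling the lower DEGs with Enalapril and Combination were 0 and 0 for macrophages, 1 and 1 for T and B cells, and 2 and 3 for injured tubules. On that scale 1.22% and 2.31% of all genes were lower DEGs. None of these markers was a DEG with Compound 1. All 17 of these tested markers were past the filter, and their part in the levels of the members was not tested. Of 7 markers of the medulla 0 were DEGs. Their median log2 fold change was -0.18 with Enalapril, 0.04 with Compound 1 and -0.05 with Combination, beside -0.15, -0.07 and -0.18 over all genes. By adjusted p Slc14a2 fell with Enalapril (-0.44, adjusted p = 0.00868) and with Combination (-0.41, adjusted p = 0.002), while Aqp2, Aqp3 and Aqp4 did not pass.

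The effect of Enalapril was also measured between Combination and Compound 1, animals other than those of Enalapril and Vehicle, although the dose of Compound 1 differed between them. The fit of this contrast took its spread from all 4 groups, so its p-values are not separate from the first comparison. There 0 members were DEGs, where 0.274% of all tested genes were higher and 2.05% lower DEGs, and 20 of the 38 had an unadjusted p under 0.05 in limma, as 36.3% of all genes did. By adjusted p alone 7 members rose (Slc38a3, Slc3a1, Slc6a13, Slc6a18, Slc6a19, Slc6a20 and Slc6a4), against 4.72% of all genes, and 4 fell (Slc1a5, Slc38a9, Slc43a3 and Slc7a6), against 17.4%. Without Compound 1 animal 3001, 6 rose and 3 fell, against 2.97% and 12.4% of all genes. Fitted on the 24 animals of Combination and Compound 1 alone, 8 members rose, against 4.55% of all genes, and 4 fell, against 15.3%. With that fit 7 members passed by adjusted p in the same direction in both sets of animals, of which Slc3a1, Slc6a13, Slc6a18, Slc6a20 and Slc7a13 were higher and Slc1a5 and Slc38a9 lower. Slc6a19 passed in the fit of all groups and had an adjusted p of 0.0722 in that of the 24 animals. The log2 fold change of Slc3a1 was 0.51 (SE 0.12) in the first set and 0.39 (SE 0.11, adjusted p = 0.0134) in the second, fitted alone, and that of Slc6a20 0.37 (SE 0.07) and 0.34 (SE 0.07, adjusted p = 0.00261). For Slc7a4 the values were -0.62 (SE 0.12) and -0.07 (SE 0.13, adjusted p = 0.706), and the interaction was 0.54 (SE 0.17, adjusted p = 0.986, unadjusted p = 0.00303). Of the 38 members, 34 (89.5%) had the same sign in both sets, against 82.7% of all tested genes, and 31 did after rescaling, against 74.9%. The correlation of the values across the members was 0.88, and 0.66 across all genes, where genes are not independent replicates and share libraries.

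**Figure D5:**
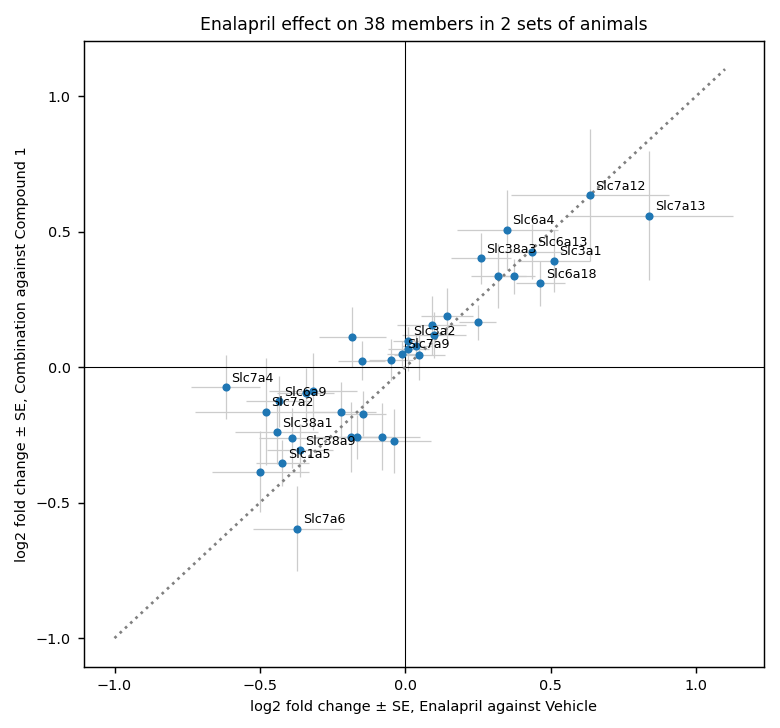
Log2 fold change ± SE of the 38 tested members with Enalapril against Vehicle (horizontal) and with Combination against Compound 1 (vertical), 2 comparisons of separate animals whose vertical SE comes from the fit of all 4 groups, with a dotted line of equality. Slc3a1, Slc6a13 and Slc6a18 sat in the upper right, Slc1a5 and Slc38a9 in the lower left, and Slc7a4 lay near 0 on the vertical axis only.

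Where Compound 1 was added to Enalapril, few genes of any kind passed the test and none of them was a member. Combination against Enalapril gave 0 DEGs among the members, where 0% of all tested genes were higher and 0.00742% lower DEGs, and 0 members past the adjusted p, against 0.0223% higher and 0.0297% lower. In limma 3 of 38 members had an unadjusted p under 0.05, as 10.4% of all genes did. The interaction of the treatments gave 0 members, where 0.00742% of all genes were called, and 2 members had an unadjusted p under 0.05, as 4.29% of all genes did. The effect of Compound 1 without and with Enalapril had the same sign in 28 of 38 members (73.7%), against 63.7% of all tested genes, and 0 members passed in both. For Slc6a9 the log2 fold change was -0.53 (SE 0.10) without Enalapril and -0.23 (SE 0.10, adjusted p = 0.424) with it, and the interaction was 0.31 (SE 0.14, adjusted p = 0.986).

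Genes around the transporters were followed as lists. Of 14 genes of the amino acid response driven by ATF4, 1 was a lower DEG with Enalapril (Chac1, a glutathione-degrading enzyme), against 4.04% of all tested genes. There was 1 with Compound 1 (Trib3, a pseudokinase), against 0.156%. Combination gave 3 (Trib3, Chac1 and Mthfd2, a mitochondrial folate enzyme), against 6.39%, and 0 were higher with any treatment. Chac1 and Trib3 lay near the filter, at Vehicle means of 1.09 and 1.26 FPKM and treated means of 0.546 to 0.837 FPKM. By adjusted p, with both Enalapril and Combination, Psat1 and Shmt2 rose and Asns, Atf5, Chac1, Mthfd2, Nupr1 and Trib3 fell. By that rule 26.6% and 39.3% of all genes were lower with these treatments, and 3.57% and 6.38% were higher. Atf4, Ddit3 and Ddit4 fell with Combination only (adjusted p = 0.00425, 0.00183 and 0.0163, limma). The log2 fold changes were 0.31 and 0.28 for Psat1 and 0.18 and 0.26 for Shmt2. The median log2 fold change of the list was -0.21, -0.16 and -0.32, beside -0.15, -0.07 and -0.18 over all genes. After rescaling it was -0.06, -0.09 and -0.14, beside 0.001, 0.003 and -0.009 over all genes. Of 13 carriers and partners outside the families, 0 were DEGs as deposited, where 0.49% and 0.994% of all genes were higher with Enalapril and Combination. By adjusted p alone Slc15a1, a peptide carrier, and Slc15a2 rose with Enalapril, against 3.57%. With Combination Slc15a1, Slc15a2, Slc25a13, Slc25a15, Slc25a29 and Slc25a38 rose, against 6.38%, and Slc25a22 fell, against 39.3%. After rescaling 1 was a higher DEG with Enalapril (Slc15a1), against 1.52%, and 3 with Combination (Slc15a1, Slc15a2 and Slc25a13), against 2.5%. Of 5 tested osmotic response genes, 1, the kinase Sgk1, was a higher DEG with Enalapril, from 56.7 to 86.2 FPKM, against 0.49% of all genes. It also rose with Combination, to 77.2 FPKM (log2 fold change 0.44, adjusted p = 0.00789), as a DEG there after rescaling (0.62). Others of the list went the other way. Hspa1b fell with Enalapril (-0.50, adjusted p = 0.0119) and with Combination (-0.49, adjusted p = 0.00309). Nfat5 fell with Combination (-0.58, adjusted p = 0.000157). The median log2 fold change of this list was -0.25 with Enalapril, 0.08 with Compound 1 and -0.14 with Combination.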

How the data were processed

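Kidney RNA of 44 rats was sequenced by the study. The file the authors deposited holds FPKM of 32883 entries on rat build rn6. Which aligner and counter made them is not given in the sources used. The deposited FPKM are not counts, so no count model was used, and the study's own test of raw counts could not be repeated. Columns without a sample numbered 0.

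FPKM were tested as log2(FPKM + 0.1) with limma 3.58.1 (R 4.3.3, mean-variance trend) where FPKM exceeded 1 in 9 or more animals. Fold changes of low genes are understated on this scale. Fits against Vehicle used the animals of those groups alone. Other contrasts and the interaction used all 4 groups together. Benjamini-Hochberg adjustment ran over all tested genes. The test was checked on simulated data. The animals carry separate numbers in the labels, so no pairing was used, and nothing says how animals were housed or processed together.

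Relative depth came from ratios of low FPKM values. It says how libraries compare and gives no read totals, so no counting interval is given.

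The members, the lists and the rule for named genes were chosen with earlier results of these data known. The rule gives the range and median for members called in any comparison and for the 10 of highest mean in Vehicle, and group means for members past the adjusted p. Promoter sequences are from RefSeq, build GRCr8. Alternatives were pseudocounts of 1 and 0.01, no filter, FPKM above 5, scaling by median of ratios or quantiles, adjusted p alone, sample weights, marker covariates, other animals in the fit, leaving out 2103 with 3102 to 3105, leaving out 6 animals that the file lists apart, and leaving out each animal. Leaving out Vehicle animals 1003 and 1004 or Compound 1 animal 3001, the chain ratios, and the count by adjusted p in a fit of Combination and Compound 1 alone were added after the data were seen.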

Additional observations from a re-analysis of the deposited data

Results flagged for a closer look

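Among the 38 tested members in the Enalapril group, the one group of a size suited to this check, 1 value stood apart. Slc3a2, the basolateral heavy chain, was at 103.6 FPKM in Enalapril animal 2001, while the nearest of the other animals was at 121.9 and the highest at 140.2, so that the gap spanned 0.500 of the range of the group. Chance flags about 1 in 20 such groups, and 38 were examined, so 1 flag is not more than chance would give.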

How the results depend on the processing

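The number of members called DEGs depended on the settings. With Enalapril it was 2 and became 1 with a pseudocount of 1, with FPKM above 5, with medulla markers as a covariate or without animals 2103 and 3102 to 3105. It was 4 with median-of-ratios scaling, 15 by adjusted p alone, and 0 with proximal tubule markers as a covariate, without the 6 animals listed apart or without Vehicle animals 1003 and 1004. With Combination it was 3 and became 1 with a pseudocount of 1 or medulla markers, 7 with median-of-ratios scaling, 17 by adjusted p alone, and 0 with proximal tubule markers or without animals 1003 and 1004. With Compound 1 it was 0, and 1 by adjusted p alone. Leaving out each animal gave 0 to 3 with Enalapril, 0 to 0 with Compound 1 and 2 to 5 with Combination. Combination against Compound 1 went from 0 to 1 with a pseudocount of 0.01, FPKM above 5, other animals in the fit or without animals 2103 and 3102 to 3105, to 2 with median-of-ratios scaling, quantile normalization or sample weights, to 3 without the 6 animals listed apart and to 11 by adjusted p alone. Enalapril against Compound 1 went from 1 to 0 with a pseudocount of 0.01, no filter, either marker covariate, without animals 2103 and 3102 to 3105, without the 6 animals or without Compound 1 animal 3001, and to 10 by adjusted p alone. The cause was not tested. With proximal tubule markers as a covariate, Slc7a13 turned to -0.22 with Enalapril and -0.35 with Combination, and Slc6a19 to -0.017 for Enalapril against Compound 1. The mean level of these markers was itself higher with Enalapril and Combination than in Vehicle. Combination against Enalapril and the interaction gave 0 under each alternative run. No paired analysis was possible because the animals carry separate numbers in each group. FPKM give no read totals, so members near 1 FPKM have an unknown counting error.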
